A study of Mus musculus with 2 samples.

Results

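The cluster described here is the set of miR-297, miR-466, miR-467 and miR-669 genes inside Sfmbt2 on mouse chromosome 2. Members were taken by a rule on annotation that uses no count, though it was chosen with earlier results of these data known. It takes every row of the count tables whose Ensembl identifier is a GENCODE M21 microRNA gene on the plus strand of the Sfmbt2 region (mm10, chromosome 2, 10370000 to 10600000) and whose symbol starts with Mir297, Mir466, Mir467 or Mir669. The rule found 59 members among 1973 named genes, 20 of them miR-466, 20 miR-669, 14 miR-467 and 5 miR-297 genes. A further 12 genes of these families that M21 places in the same region have no row and are not analysed here: Mir466b-1, Mir466c-1, Mir466e and Mir669a-4 to Mir669a-12.

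MicroRNA sequencing had been done on whole kidney of newborn B6NCrl mice. There are 2 libraries, each from total RNA of the 2 kidneys of 1 pup at postnatal day 0, called pup 1 and pup 2. Both pups came from pregnancy 1 and form 1 group, with no treatment, no mutant allele and no second tissue or age, and sex was not collected. The only comparison between samples that this design allows is that of the pups with each other.

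MicroRNA genes are transcribed into a hairpin precursor, which is cut to a short mature strand that guides Argonaute proteins to target messages. The seed, near the 5′ end of the mature strand, does most of the pairing with the target. Sfmbt2 encodes a Polycomb-group protein and is an imprinted gene that is expressed from the paternal allele in the mouse embryo and placenta. One of its introns holds a large microRNA cluster found in rodents, built by repeated duplication of hairpins rich in alternating TG and CA bases, and this cluster is best known from trophoblast and embryonic stem cells. Because its hairpins are copies of each other, a short read from one member can match several others.

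The repeat character of these families is seen in their mature strands. RefSeq (GRCm38.p6) gave a mature sequence for 0 of the 59 members and for 8 of the 10 genes of the same symbol families elsewhere in the genome. These 8 are printed 5′ to 3′, with the seed, bases 2 to 8, in capitals, to show their runs of alternating bases.
mmu-miR-466i-3p: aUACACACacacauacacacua
mmu-miR-466j: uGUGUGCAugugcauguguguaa
mmu-miR-466k: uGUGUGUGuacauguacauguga
mmu-miR-466q: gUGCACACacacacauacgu
mmu-miR-467f: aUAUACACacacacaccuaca
mmu-miR-467g: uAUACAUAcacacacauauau
mmu-miR-467h: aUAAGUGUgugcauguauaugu
mmu-miR-669n: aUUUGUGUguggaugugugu

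None of these 8 strands occurred whole in a member's hairpin. Their seeds did, as 7-base matches on the gene strand: the letters of the miR-467g seed were found in 50 of the 59 member hairpins (84.7%) against 6.65% of all 1894 hairpins examined, those of the miR-466i-3p seed in 37 (62.7%) against 7.81%, and those of the miR-466k seed in 31 (52.5%) against 9.35%. The miR-466j seed was in 50.8% of member hairpins (against 4.80%) and the miR-466q seed in 20.3% (against 2.75%). For miR-467f the share was 16.9% (against 5.28%) and for miR-669n 15.3% (against 2.80%). The miR-467h seed was found in 1 member hairpin (1.69%, against 0.686%). The 1894 hairpins include the members. A match says only that these letters lie in the hairpin. The 6-base motif TGTGTG, sought on either strand, was in 59 of 59 member hairpins and in 19.9% of all hairpins. The longest alternating TG run had a median of 9 bases in members, with a range of 7 to 15, and of 4 bases in all hairpins. Member hairpins were 73 to 127 bases long, with a median of 90, the same median as all hairpins.

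All 59 members lie in a single Sfmbt2 intron. Sfmbt2 (ENSMUSG00000061186.15) spans 10370510 to 10595253 on the plus strand of chromosome 2. The intron runs from 10461473 to 10523944, 62472 bases, and is intron 10 of the transcript Sfmbt2-201 and intron 11 of Sfmbt2-205, both protein-coding with 23 exons. The 5 other annotated transcripts of the gene do not span it. Members fill 51.6 kb of the intron, and the starts of neighbouring members lie 225 to 4588 bases apart, with a median of 417. The middle of the cluster repeats a unit: from 1 Mir467a gene to the next the starts lie 2413 to 4880 bases apart (median 2462, 9 intervals). Along the whole cluster, a miR-466 gene follows each of 10 miR-467 genes after a gap of 198 to 209 bases. These 10 include Mir467d and Mir467e, which lie beyond the Mir467a genes.

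The libraries held 5832192 counts on named genes in pup 1 and 3846704 in pup 2, and levels are given as CPM, counts per 1000000 of these totals. Multimapping reads, listed apart and not assigned to genes, were 30.3% and 31.0% of all reads. Of marker lists, kidney and Hox positional microRNAs (5 of 5 counted in both pups) made up 24.7% ± 0.723 of counts (SD, n = 2), epithelial miR-200 genes 3.16% ± 0.00771, proximal tubule genes 0.0872% ± 0.00340, the endothelial Mir126a 7.96% ± 1.08, mesenchymal genes 4.24% ± 0.301 and leukocyte genes 586 ± 35.5 CPM. Liver (50.6 ± 9.00 CPM), striated muscle (4.78 ± 0.512) and neural (1.81 ± 0.379) lists were low in counted reads. In the muscle list 4 of 5 genes with a row were at 0 in both pups, and in the neural list 3 of 5. Multimapping reads are left out, so these zeros set no bound on a level. The erythroid list summed to 241 CPM in pup 1 and 98.8 CPM in pup 2. Its highest gene, Mir451a, had 208 and 53.6 CPM. Mir144 of the same list went the other way, with a log2 ratio of pup 2 over pup 1 of 0.39. Of the pluripotent and early trophoblast list, the miR-290 family, 6 of 7 genes with a row were counted in both pups, and the list summed to 14.2 CPM in pup 1 and 13.3 in pup 2, with Mir293 highest at 4.91 ± 0.328 CPM. The part that any of these cell types has in the levels below was not tested, and fewer cells of a type cannot be told apart from less RNA per cell.

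The cluster was counted in newborn kidney, and almost all of its counts came from 6 genes. Members summed to 15308 counts in pup 1 and 10921 in pup 2. The cluster's share of all counts was 0.262% in pup 1, with a 95% interval by Wilson's method of 0.258 to 0.267, and 0.284% in pup 2, with 0.279 to 0.289. These shares equal 2625 and 2839 CPM. The mean was 0.273% ± 0.0152 (SD, n = 2). These intervals cover counting error only, since the reads carry no molecular identifiers and may be copies of fewer molecules. No read was listed on the opposite strand of any member, against 121726 in pup 1 and 78841 in pup 2 over all named genes.

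Of 59 members, 13 had counts in both pups (22%, against 26.7% of all named genes), 8 had 1 or 2 counts in 1 pup only, and 38 had 0 in both (64.4%, against 64.7% of all). Members at 10 CPM or more in both pups numbered 7 (11.9%, against 12.5% of all named genes). By these measures the cluster is close to the tables as a whole, though members and all named genes differ in how far their hairpins share sequence, as set out below. The plot of level against distance along Sfmbt2 shows where the counted members lie.

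**Figure D1:**
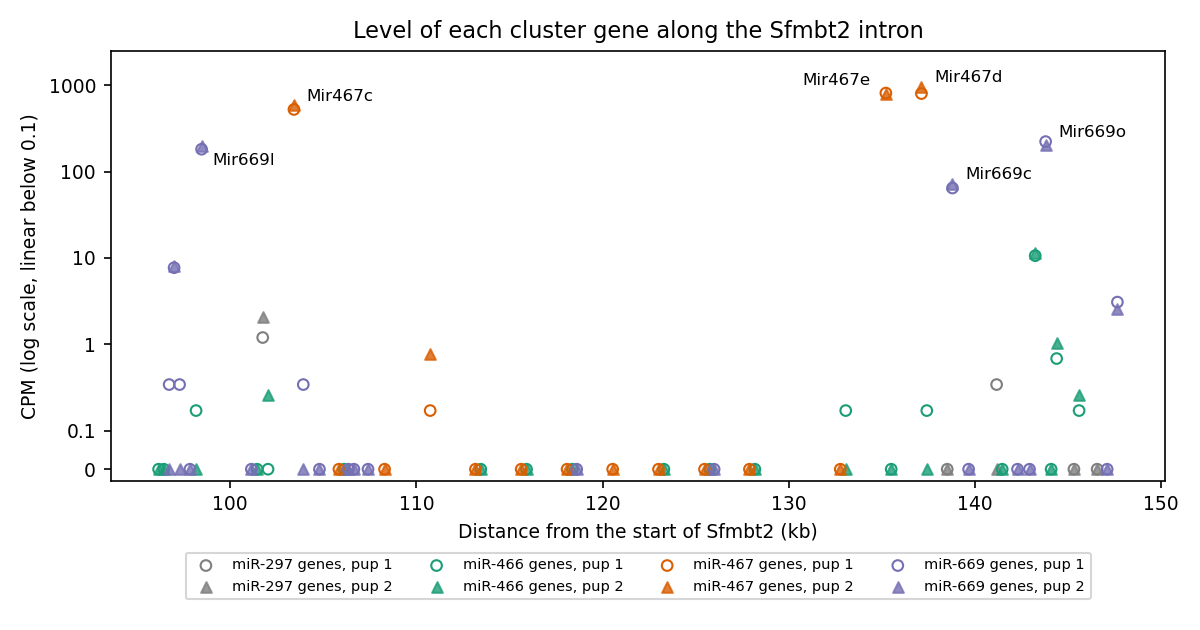
CPM of each of the 59 members (vertical axis, log scale with a linear part below 0.1) against distance from the start of Sfmbt2 in kb, with open circles for pup 1, filled triangles for pup 2 and colour for the family. The 6 members at 50 CPM or more lie toward both ends of the cluster, and from Mir467a-1 to Mir467a-10 all members are at 0 except Mir467b, with 1 and 3 counts.

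The position of the counts along the intron was uneven. The 15 members before Mir467a-1 held 27.2% of cluster counts in pup 1 and 28.01% in pup 2. The 21 members after Mir467a-10 held 72.8% and 72.0%. The 27.0 kb from Mir467a-1 to Mir467a-10 hold 23 members but only 1 count in pup 1 and 3 in pup 2, all from Mir467b. In 19 of these 23 members every stretch of the hairpin was shared with another place, as set out below.

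By family, the 14 miR-467 genes took 0.213% of all counts in pup 1 and 0.234% in pup 2, which is 81.2% and 82.6% of the cluster. The 20 miR-669 genes took 0.0480% in each pup, or 18.3% and 16.9% of the cluster. The 20 miR-466 genes summed to 12 and 13 CPM and the 5 miR-297 genes to 1.54 and 2.08 CPM. The family order miR-467, miR-669, miR-466, miR-297 held in both pups. These are sums over what could be counted, and they leave out reads listed as multimapping.

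Among the miR-467 genes, Mir467c, Mir467d and Mir467e carried 81.2% of the cluster's counts in pup 1 and 82.5% in pup 2. Mir467d (ENSMUSG00000077021.2, 10507630 to 10507714) had 4656 counts in pup 1 and 3695 in pup 2, which are 798 and 961 CPM, with a mean of 879 ± 115 (SD, n = 2). It ranked 78 among all 1973 genes. Mir467e (ENSMUSG00000076948.2, 10505721 to 10505807), the neighbouring miR-467 gene, had 4723 and 3051 counts, or 810 and 793 CPM, and ranked 79. Their values overlap between pups: Mir467d stood at 0.986 times Mir467e in pup 1 and 1.21 times in pup 2, so their order is not settled beyond the spread.

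Mir467c (ENSMUSG00000077049.2, 10473931 to 10474027) lies near the other end of the cluster. It had 3051 and 2269 counts, 523 and 590 CPM, with a mean of 556 ± 47.2 and rank 96. It was below Mir467d and Mir467e in both pups, by 1.53 and 1.63 times against Mir467d and 1.55 and 1.34 times against Mir467e. The 3 hairpins are close relatives, with an identity of 92.0% between Mir467d and Mir467e and 83.5% for Mir467c with either. Mir467b (ENSMUSG00000095509.1, 10481248 to 10481320) had 1 and 3 counts. The remaining 10 miR-467 genes, Mir467a-1 to Mir467a-10, were all at 0 in both pups.

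The zeros of the Mir467a genes carry no bound on their level. Mir467a-2, Mir467a-4, Mir467a-5, Mir467a-7, Mir467a-8 and Mir467a-9 have identical hairpins, and so do Mir467a-3, Mir467a-6 and Mir467a-10. Among the 10 genes the median identity was 98.8%, and all 45 pairs share a stretch of 22 bases, about the length of a mature strand. Mir467b is 97.3% identical to Mir467a-1. A read that falls wholly within a shared stretch belongs to several places, and multimapping reads are not in the gene counts. The level of a single Mir467a gene is therefore uncertain, and no floor is given for it.

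The miR-669 genes came next. Mir669o (ENSMUSG00000077086.1, 10514300 to 10514395) had 1296 and 775 counts, 222 and 201 CPM, with a mean of 212 ± 14.7. Mir669l (ENSMUSG00000076959.1, 10468971 to 10469068) had 1057 and 750 counts, 181 and 195 CPM, with a mean of 188 ± 9.71. Mir669c (ENSMUSG00000076118.1, 10509296 to 10509404) had 376 and 279 counts, 64.5 and 72.5 CPM, with a mean of 68.5 ± 5.70. They ranked 139, 141 and 176 of all genes, and each of them kept its order in both pups, though Mir669o exceeded Mir669l by 1.23 times in pup 1 and by only 1.03 times in pup 2. Mir669l exceeded Mir669c by 2.81 and 2.69 times.

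A pair of miR-669 genes at the outer edges of the cluster was lower. Mir669e (ENSMUSG00000080653.1, 10467495 to 10467613) had 45 and 31 counts, 7.72 and 8.06 CPM. Mir669h (ENSMUSG00000080594.1, 10518155 to 10518279) is the last member along the intron and had 18 and 10 counts, 3.09 and 2.60 CPM. Mir669f, Mir669b and Mir669a-3 each had 2 counts in pup 1 and 0 in pup 2. The other 12 miR-669 genes were at 0 in both pups: Mir669a-1, Mir669a-2, Mir669d, Mir669d-2, Mir669g, Mir669i, Mir669j, Mir669k, Mir669m-1, Mir669m-2, Mir669p-1 and Mir669p-2. Mir669p-1 and Mir669p-2 are identical.

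The miR-466 genes are as many as the miR-669 genes, and 1 of them stood above the rest. Mir466n (ENSMUSG00000077991.1, 10513741 to 10513834) had 62 and 44 counts, 10.6 and 11.4 CPM, with a mean of 11.03 ± 0.571, and ranked 246. Mir466h (ENSMUSG00000077941.1, 10514891 to 10514971) had 4 counts in each pup and Mir466l had 1 in each. Mir466f-2, Mir466b-3 and Mir466 had 1 count in pup 1 only, and Mir466o 1 count in pup 2 only. The 13 at 0 in both pups were Mir466b-2, Mir466b-4 to Mir466b-8, Mir466c-2, Mir466d, Mir466f-1, Mir466f-3, Mir466g, Mir466m and Mir466p. Mir466b-4 is identical to Mir466b-6, and Mir466b-5 to Mir466b-7.

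Mir466g is the single member whose hairpin shares no 22-base stretch with any other annotated microRNA hairpin. It had 0 counts in both pups. The limit that such a zero leaves is 3 counts, equal to 0.514 CPM for pup 1 and 0.780 CPM for pup 2. This floor covers counting error only and takes no account of copies outside annotated hairpins, which were not searched. Of the 5 miR-297 genes, Mir297a-2 (ENSMUSG00000076983.2, 10472254 to 10472343) had 7 and 8 counts, 1.20 and 2.08 CPM, Mir297b had 2 counts in pup 1 only, and Mir297a-3, Mir297a-4 and Mir297c were at 0.

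**Figure D2:**
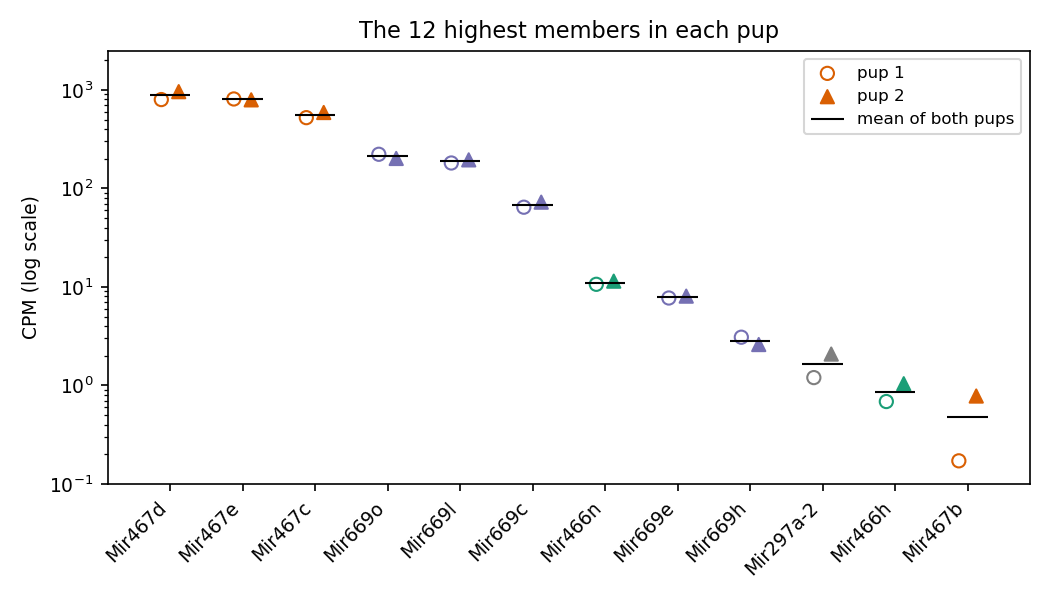
CPM (log scale) of the 12 members with the highest mean, with open circles for pup 1, filled triangles for pup 2 and a line for the mean of both. Levels fall from 879 CPM for Mir467d to 0.476 CPM for Mir467b, and the pups overlap between neighbours only for Mir467d with Mir467e and Mir466h with Mir467b. With 2 values per gene, lack of overlap does not settle an order.

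Across the 12 highest members the 6 leading genes, all miR-467 or miR-669, span 68.5 to 879 CPM. Below them the level drops 6.06 times in pup 1 and 6.34 times in pup 2, from Mir669c to Mir466n. Among the 11 neighbouring pairs in this order, the pup values overlapped for 2, Mir467d with Mir467e and Mir466h with Mir467b. With 2 values per gene, lack of overlap does not settle an order. In pup 2, for example, Mir669o and Mir669l had 775 and 750 counts, and Mir669h and Mir297a-2 had 10 and 8. Among the 6 leading genes the SD over the pups was 1.47% of the mean for Mir467e and 13.0% for Mir467d, the lowest and the highest of the 6.

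The hairpins were compared with each other and with all 2202 microRNA hairpins of GENCODE M21 on both strands, to show how far a count can be tied to a single gene. Of the 59 members, 58 share a stretch of 22 bases with a hairpin at another place, against 892 of the 1894 named genes with a hairpin. The median member shares such a stretch with 16 other hairpins, and the median of all genes is 0. In the median member 36% of the 22-base stretches occur nowhere else among hairpins, against 100% in all genes.

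In 20 members every 22-base stretch is shared, and all 20 were at 0 in both pups. They are the 10 Mir467a genes, 6 miR-466 genes (Mir466b-4 to Mir466b-8 and Mir466c-2) and 4 miR-669 genes (Mir669a-1, Mir669a-2, Mir669p-1 and Mir669p-2). In the 38 members with some but not every stretch shared, 13 (34.2%) were counted in both pups and 17 were at 0 in both. The same split over the 1894 named genes with an M21 hairpin gave 1 of 254 genes counted in both pups where every stretch is shared. It gave 78 of 638 (12.2%) where some but not every stretch is shared, and 447 of 1002 (44.6%) where none is. So the zeros of the 20 members fall in a class of hairpins that is at 0 in these tables almost throughout, and whether their mature strands are made in kidney cannot be read from the counts.

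**Figure D3:**
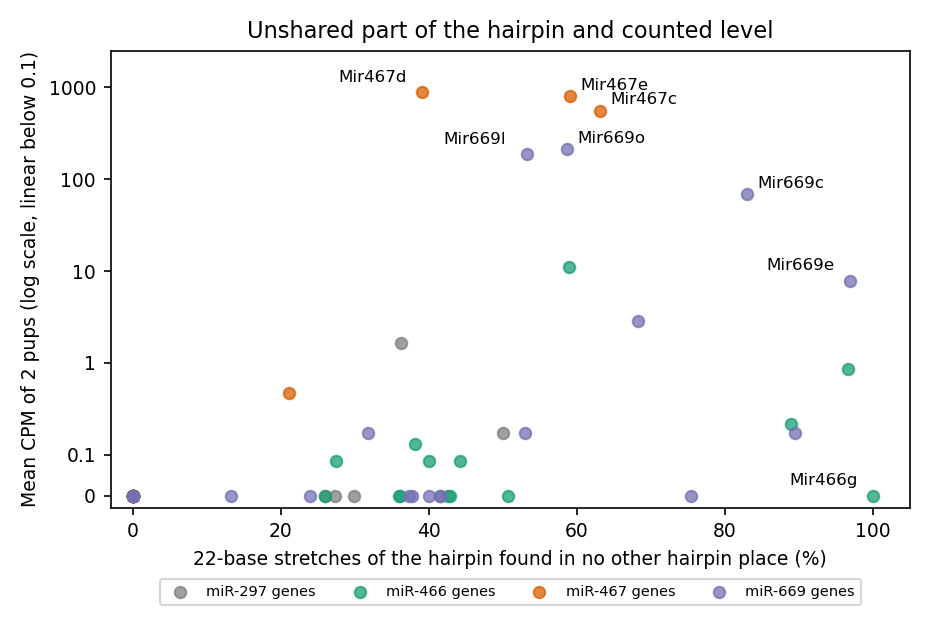
Mean CPM of both pups (log scale with a linear part below 0.1) against the percentage of a hairpin's 22-base stretches that occur in no other annotated hairpin place, 1 point per member. The 20 members at 0% on the horizontal axis are all at 0 CPM, Mir467d reaches 879 CPM at 39.1%, and Mir466g at 100% is at 0 CPM.

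Among the members with some unshared stretches, levels varied widely, as examples chosen after their values were seen show. Mir467d, with the highest mean, has 39.1% of its stretches to itself, Mir467e 59.1% and Mir467c 63.2%. Mir669e has 96.9% to itself and stood at 7.89 CPM, and Mir466h has 96.7% and stood at 0.863 CPM. The counts of Mir467d, Mir467e and Mir467c can also lack reads, since each shares stretches with 13 to 15 other members. Ratios between members are therefore ratios of counted reads, not of mature strands.

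**Figure D4:**
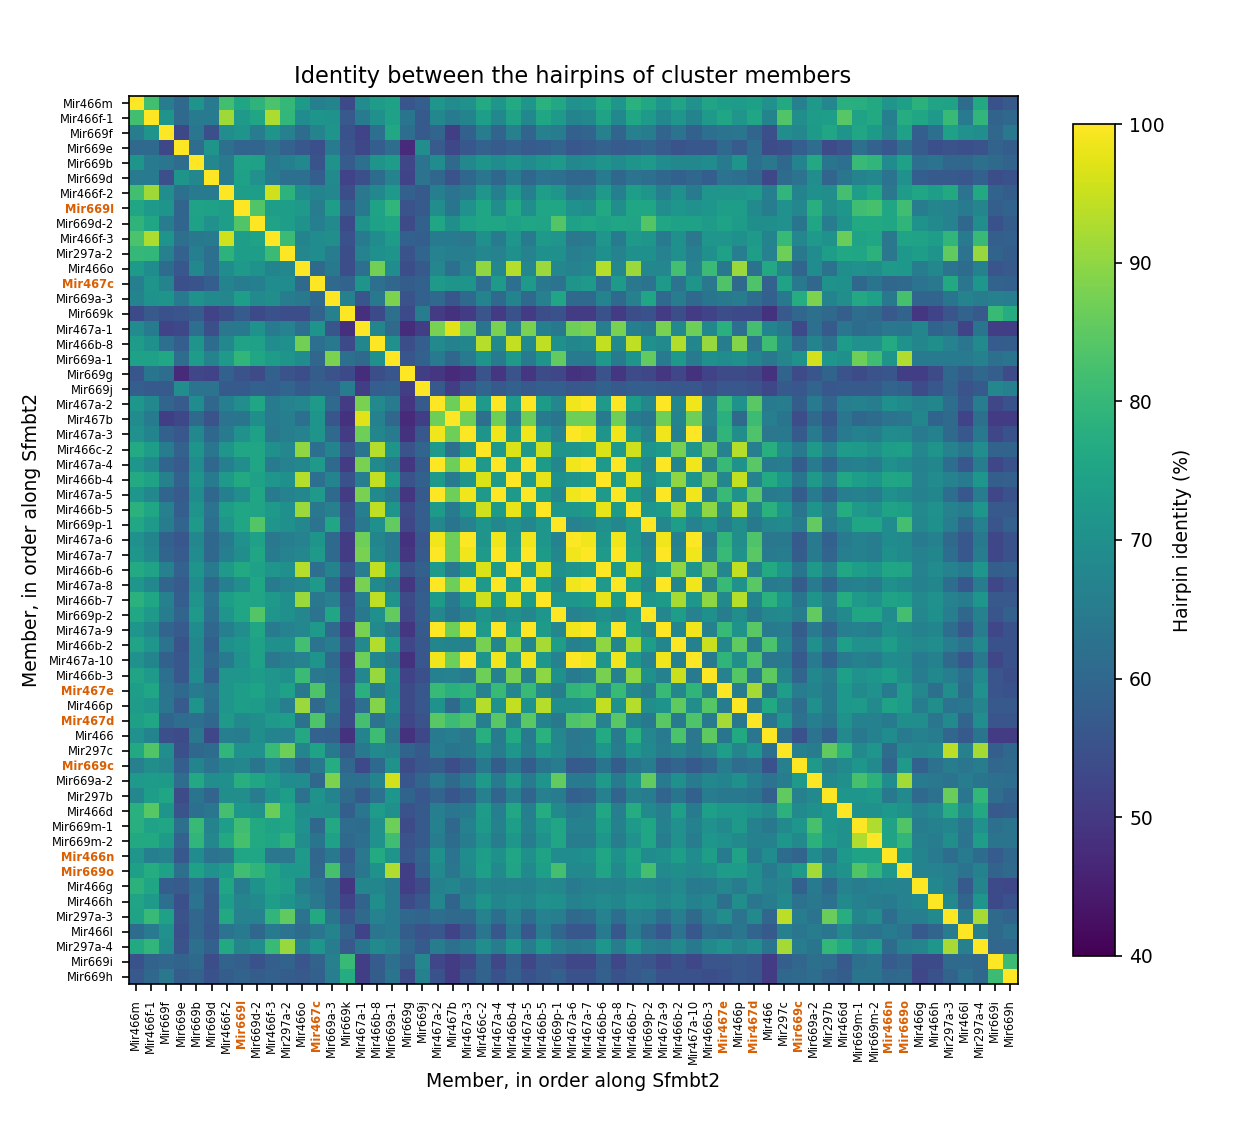
Identity in percent between the hairpins of every pair of the 59 members, in order along Sfmbt2 on both axes, with the 7 members at 10 CPM or more in both pups in bold orange. The chequered middle is the repeat of Mir467a and miR-466b/c genes, whose Mir467a pairs run from 86.7% to 100%, and the bold members lie outside it.

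Pairwise identity over all 1711 member pairs ran from 47.2% to 100%, with a median of 66.7%. Of these pairs 309 (18.1%) share a 22-base stretch and 21 are identical. Some close relatives of counted genes were at 0. Mir467a-2 is 84.7% identical to Mir467d and 80.5% to Mir467e. The nearest relative of Mir669o is Mir669a-1, at 92.8%, also at 0 and with every stretch shared. In the matrix of hairpin identity the 7 members at 10 CPM or more fall outside the block of near-identical Mir467a and Mir466b copies.

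The rest of the family and of the intron gave few counts. The 10 named genes of the same symbol families outside the cluster, Mir297-1, Mir466f-4, Mir466i, Mir466j, Mir466k, Mir466q, Mir467f, Mir467g, Mir467h and Mir669n, had 0 counts in both pups. Within Sfmbt2, 48 other microRNA genes without a family symbol summed to 7 counts in pup 1 and 3 in pup 2, and 44 of them were at 0. Those with a count were Gm22072 (3 and 0), Gm22678 (1 and 0), Gm22239 (2 and 2) and Gm22925 (1 and 1).

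Other microRNA genes known as imprinted give a scale for the cluster's counted reads, which leave out multimapping reads and do not separate the alleles. Those hosted by the paternally expressed genes Mest (Mir335) and Igf2 (Mir483) and by the Gnas locus (Mir296 and Mir298) were all counted in both pups and took 5.90% ± 0.217 of counts (SD, n = 2), led by Mir335 at 54955 ± 1919 CPM. The 51 genes of the maternally expressed Dlk1-Dio3 cluster, another large imprinted microRNA cluster, took 0.726% in pup 1 and 0.874% in pup 2. Of these 51, 42 (82.4%) were counted in both pups, against 13 of 59 (22%) Sfmbt2 members and 26.7% of all named genes. The highest Dlk1-Dio3 gene, Mir411, had 1588 and 2236 CPM. Mir675 of the maternally expressed H19 had 28.3 and 28.9 CPM, below each of the 6 leading Sfmbt2 members. Of the 59 Sfmbt2 members, 58 share a 22-base stretch with another hairpin, and sharing in these other lists was not compared. Their shares of genes counted are therefore not shares of genes expressed.

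The pups were compared gene by gene with an exact two-sided binomial test on both counts. Such a test sets 1 library against another, says nothing about conditions, and covers counting error only. It was run on the 324 genes whose mean count reached 10, and 9 members were among them (15.3% of members, against 16.4% of named genes). At a Benjamini-Hochberg adjusted p below 0.05 it called 3 of the 9 members, 2 higher and 1 lower in pup 2. Over all tested genes it called 33.6%, with 12.7% higher and 21% lower in pup 2, so 3 of 9 (33.3%) is the background share and no result about the cluster. The median log2 ratio of pup 2 over pup 1 was 0.08 in the 9 members and -0.04 in all tested genes.

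Mir467d was higher in pup 2 by a log2 ratio of 0.25 (95% counting interval 0.18 to 0.31, adjusted p = 1.16e-13, exact binomial test), and Mir467c by 0.15 (0.07 to 0.23, adjusted p = 0.000759). Mir669o was lower in pup 2, with a log2 ratio of -0.16 (-0.29 to -0.03, adjusted p = 0.0413, exact binomial test). That call was lost with DESeq2 size factors (adjusted p = 0.0765), with library totals (0.0934) and with no filter on low counts (0.0887) in the same exact test. The log2 ratios of the 6 members not called were -0.05 for Mir467e (-0.12 to 0.01), 0.08 for Mir669l (-0.05 to 0.22), 0.15 for Mir669c (-0.08 to 0.38), 0.09 for Mir466n, 0.05 for Mir669e and -0.24 for Mir669h.

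The size of the members' ratios was like that of all tested genes: the median absolute log2 ratio was 0.15 in the 9 members and 0.15 in the 324 genes. The common dispersion that edgeR fitted to the pups as replicates gave a biological coefficient of variation of 9.29%. edgeR's exact test with that dispersion called 0 members, with 0 at an unadjusted p below 0.05, and 1 of 324 genes. Its dispersion was fitted to the same differences between pups that it then tested, so few calls are built into it and nothing is read from them. With 1 library per pup, the spread between pups cannot be told apart from technical variation.

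**Figure D5:**
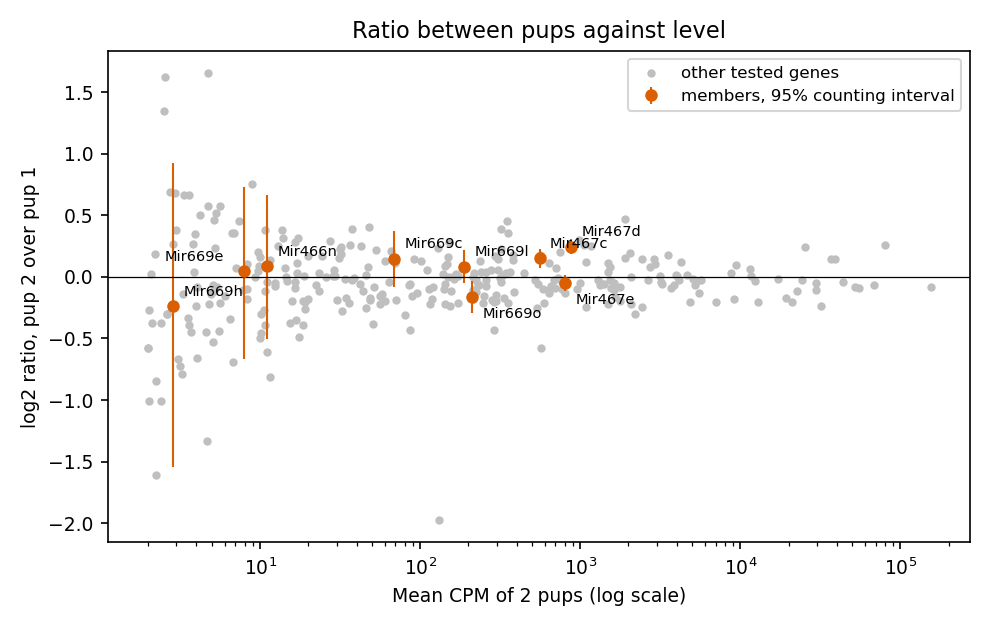
Log2 ratio of pup 2 over pup 1 against mean CPM (log scale) for the 324 tested genes, with the 9 tested members in orange and their 95% counting intervals as bars. Members lie between -0.24 and 0.25, within the cloud of other genes at the same level, and the bars widen as the level falls.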

How the data were processed

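The authors' tables hold raw read counts per microRNA gene, not normalised, in 3 columns without a header. They were made on assembly mm10 with annotation M4, per the deposited notes. For the aligner, trimming and filters, the sources used here give nothing. The column for the gene's strand was used, as read from the values, and rows naming no gene stayed out of totals. A count belongs to a hairpin, so mature arms are not separated.

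Of 1973 identifiers, 1894 matched GENCODE M21, which gave symbols, coordinates and hairpins. Shared stretches of 22 bases were sought among its annotated hairpins on both strands. Counts were scaled to CPM. The exact binomial test used TMM library sizes (edgeR 4.0.16, R 4.3.3), a mean count of at least 10, a prior count of 0.5 for log2 ratios and Benjamini-Hochberg adjustment over all tested genes. It was tried on counts simulated with counting error alone, the error that it assumes. That trial says nothing about spread between pups beyond counting error. DESeq2 1.42.0 gave other size factors. Alternatives covered the denominator, strand column, detection level, stretch length, scaling, filter, test and each pup left out.

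Members and lists were chosen with earlier results of these data known. The text gives the 12 members with the highest mean, every other member with a count, and members at 0 in groups. It also gives members called between pups, family genes and other microRNA genes of Sfmbt2, and each imprinted list's highest gene.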

Additional observations from a re-analysis of the deposited data

How the results depend on the processing

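With all reads as the denominator the cluster's share fell from 0.273% to 0.158%, by construction, since multimapping and unmapped reads then count in the total. With only the member that shares no 22-base stretch the share was 0%, as that is Mir466g alone. Leaving out a pup gave a share of 0.262% to 0.284%. Members with counts numbered 13 in both pups, and 14 to 20 when a pup was left out, because a count in the remaining pup then sufficed; it was 20 without pup 2. Counts regardless of strand gave 13 as well. Members at 10 CPM or more numbered 7, and between 5 and 10 with thresholds of 100 and 1 CPM and 6 with all reads as the total. Members sharing a stretch numbered 58 with 18 bases and 56 with 25 bases. Members called between the pups numbered 3, 2 with DESeq2 size factors, library totals or no filter, and 0 with edgeR's exact test, whose dispersion was fitted to the same differences between pups, so that few calls are built into it. None of the 9 log2 ratios changed sign. Each pup's replicate number only names it. No paired analysis was possible because both samples belong to 1 group. At this depth, members with a few counts could not be ordered.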

Other observations

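A split of the members by where an unshared 22-base stretch starts was chosen after the values were seen, and is given as values only. In 32 members at least 1 such stretch starts in the 5′ part of the hairpin: 11 of them had counts in both pups, and these include all 7 at 10 CPM or more. In the other 27 members 2 had counts in both pups, Mir297a-2 and Mir467b, and these 27 summed to 8 counts in pup 1 and 12 in pup 2. Over all named genes with a hairpin, 523 of 1571 genes with an unshared stretch starting there were counted in both pups, and 3 of 323 without. At 10 CPM or more in both pups were 246 of the 1571 (15.7%) and 0 of the 323. That all 7 such members fall in the first class is therefore shared with all named genes and no result about the cluster.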
